A study of Homo sapiens with 12 samples.

Results

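The comparison described here set 22Rv1 cells expressing shCENPA2, the stronger of the study's hairpins against CENPA, against 22Rv1 cells expressing a nontargeting hairpin (shNT). It takes in 8 of the 12 runs of the series, chosen by the hairpin named in the sample labels. The 12 runs come from 6 libraries, 2 for each hairpin, and every library was sequenced in lanes 7 and 8. The sample labels number every run as a replicate. Below, a numbered replicate of a hairpin is instead a whole library with both its lanes, numbered in label order. The lanes of a library were averaged, so that n = 2 libraries for shNT, 2 for shCENPA2 and 2 for shCENPA1, a second hairpin against the same gene that is used here only to show where shCENPA2 differed.

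22Rv1 is an established human prostate carcinoma line that grew out of a xenograft and keeps features of luminal prostate cells. In all 3 groups a stably integrated lentiviral vector carried the hairpin behind a Tet-On promoter, and all 3 groups, the nontargeting control included, received doxycycline at 2 µg/ml for 72 h. No library without doxycycline was analysed here. The cells were selected with puromycin, and whether each line is 1 clone is not stated. The labels do not say that the libraries of a group came from separate cultures, so the p-values measure the spread between these libraries.

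CENPA is the histone H3 variant that replaces H3 in centromeric nucleosomes and marks the place where the kinetochore is built. It is made mainly in G2, is deposited at centromeres after mitosis by the chaperone HJURP with the MIS18 complex that includes OIP5, and recruits the constitutive centromere proteins on which the outer kinetochore assembles. Many genes of mitosis carry a CHR element (cell cycle genes homology region) in the promoter, and many genes of DNA replication an E2F site. The DREAM complex binds through both to hold these genes off in resting cells, and the B-MYB, FOXM1 and E2F activators act on them in dividing cells.

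The libraries held 79172294 to 133074655 reads on the genes of the table. Levels are given as log2 RPKM, the base 2 logarithm of reads per gene after division by gene length and library size, and differences as log2 fold changes, where -1 is a fall to 50% of the control level. A gene was called when its log2 fold change was beyond 1 in either direction with an adjusted p under 0.05 (limma, Benjamini-Hochberg over the 14624 genes tested). Reads differed between lanes of the same library by a chi-square of 1.24 to 1.31 per gene, and between libraries of the same hairpin by 26.5 (shNT), 80.1 (shCENPA1) and 54.9 (shCENPA2). The shCENPA2 libraries differed from each other by a median of 0.17 on the log2 scale over all genes, and the shNT libraries by 0.09. All 10 markers of luminal prostate epithelium were in the table, with a summed RPKM of 952 and 905 in the shNT libraries and 899 and 895 in the shCENPA2 libraries. Of 5 basal markers KRT5, KRT14, KRT15 and TP63 were not in the table, and neither were the 4 endothelial and 6 leukocyte markers. The basal marker that was measured, DST, had an RPKM of 2.03 and 2.3 with shNT and 1.79 and 1.86 with shCENPA2. Of 6 neuroendocrine markers 3 were measured, and their summed RPKM was 55.3 and 51.8 with shNT and 54.5 and 56.4 with shCENPA2. Of 8 fibroblast and stromal markers 5 were measured, and their summed RPKM was 9.79 and 9.93 with shNT and 9.87 and 9.3 with shCENPA2.

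The targeted transcript was measured first. CENPA (chr2:26786056-26794589, GRCh38) stood at 2.46 and 2.18 log2 RPKM in the shNT libraries and at -0.47 and -0.41 in the shCENPA2 libraries. These levels rest on 1186 and 764 reads with shNT and on 118 and 201 reads with shCENPA2, so the groups lay well apart. CENPA fell by 2.76 on the log2 scale (SE 0.16, adjusted p = 1.13e-05 from limma), which leaves it 85.3% below the control. With shCENPA1 the CENPA level was 0.50 and 0.58 log2 RPKM, and the direct difference between the hairpins was -0.98 (adjusted p = 0.0209 from limma), just short of the size needed for a call.

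Over all genes the change ran mostly downwards. With shCENPA2 651 of 14624 genes were lower (4.45%) and 246 were higher (1.68%) than with shNT, so that 72.6% of the 897 called genes were lower. A further 1812 genes had an adjusted p under 0.05 from limma but a change of at most 1 on the log2 scale. The median log2 fold change of all genes was 0.01, of the lower genes -1.43 and of the higher genes 1.32. Of the lower genes 76 changed by more than 2 and 15 by more than 3 on the log2 scale, and of the higher genes 38 and 7. Genes that rose started from low levels: their median with shNT was -0.76 log2 RPKM, whereas genes that fell had a median of 1.52 and all genes one of 2.36. The share of genes called lower went from 6.56% in the fifth of genes with the lowest level with shNT to 2.91% in the fifth with the highest, while the share called higher went from 5.81% to 0.239%. The shNT level is also the value subtracted in each change, which by itself favours rises among genes low with shNT. The filter, a mean of at least -3 log2 RPKM over all 6 libraries, passed genes under -3 with shNT only if a hairpin group was higher. These levels and shares are therefore a description and not a test. Of 528 genes annotated as lncRNA 18 fell and 16 rose.

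**Figure D1:**
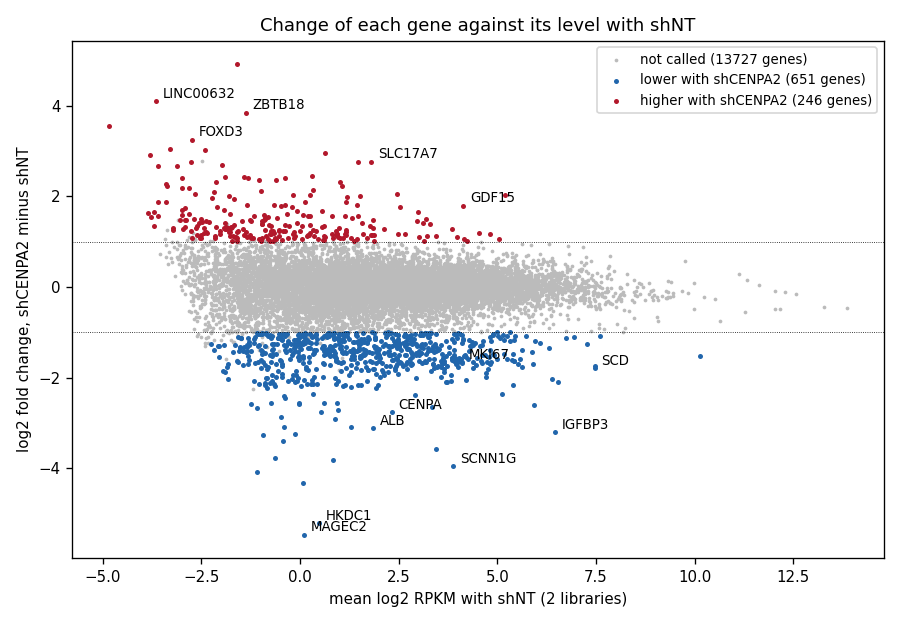
Each point is 1 of 14624 genes, with the mean log2 RPKM of the 2 shNT libraries on the x axis and the log2 fold change (shCENPA2 minus shNT) on the y axis. Blue points are the 651 genes called lower, red points the 246 called higher, and the dotted lines mark a change of 1. Red points crowd at low shNT levels, which also enter the y axis, and MAGEC2, HKDC1 and SCNN1G lie well below CENPA itself.

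The largest falls were of genes with varied roles. MAGEC2, a cancer-testis antigen of the MAGE family on the X chromosome, stood at 0.26 and -0.05 log2 RPKM with shNT and at -4.48 and -6.24 with shCENPA2. That is a change of -5.47 (SE 0.54, adjusted p = 0.000159 from limma), and the shCENPA2 value rests on only 7 and 3 reads. HKDC1, a hexokinase-like enzyme, changed by -5.22, from 652 and 549 reads to 6 and 52, so its shCENPA2 libraries differed widely. PSCA, the prostate stem cell antigen, a surface protein of prostate tumours, changed by -4.32.

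SCNN1G and SCNN1B, subunits of the epithelial sodium channel, which takes up sodium at the apical membrane, fell together. SCNN1G (chr16:23182745-23216883) went from 3.96 and 3.81 log2 RPKM with shNT to -0.05 and -0.10 with shCENPA2, a change of -3.96 (SE 0.14, adjusted p = 3.11e-06 from limma). SCNN1B (chr16:23278231-23381294), which begins 61348 bases after the end of SCNN1G, went from 3.48 and 3.43 to -0.20 and -0.06. The third classical subunit did not follow: SCNN1A stood at 3.49 and 3.45 with shNT and at 3.31 and 2.95 with shCENPA2, a change of -0.34 (adjusted p = 0.0915 from limma). The channel's regulators SGK1, NEDD4L and PRSS8 had changes of 0.43, -0.10 and 0.51 and were not called. Over the 18 genes of the sodium channel list SCNN1G and SCNN1B were lower (11.1%, against 4.45% of all genes). In this list 0 were higher (against 1.68% of all genes), and the median change was -0.10. Without shCENPA2 replicate 1 the count of lower members was 4.

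IGFBP3, a secreted protein that binds insulin-like growth factors, was the most abundant of the strongly lowered genes. It stood at 6.53 and 6.38 log2 RPKM with shNT and at 3.57 and 2.93 with shCENPA2, a change of -3.20 (adjusted p = 7.38e-06 from limma), with shCENPA1 between them at 5.01 and 5.03. ALB, which encodes serum albumin, went from 1.83 and 1.89 to -1.25 in both shCENPA2 libraries. CRABP1, a carrier of retinoic acid in the cytoplasm, changed by -2.75, and the gene listed as KIAA1024 (MINAR1 in RefSeq) by -3.09. The lncRNA LINC00930 changed by -3.83, but it was not called without shCENPA2 replicate 1. With CENPA itself these are 11 of the 12 lower genes with the largest changes. They were ranked among genes of at least 0 log2 RPKM in the group where they were higher. Both shCENPA2 libraries also had to lie below both shNT libraries.

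The largest rises were of genes with varied roles. LINC00632, a lncRNA of the X chromosome, went from -3.86 and -3.44 log2 RPKM with shNT to 0.37 and 0.54 with shCENPA2 (change 4.10, SE 0.39, adjusted p = 0.000122 from limma). A row named CDR1-AS also passed the rule. RefSeq gives that name as a synonym of LINC00632, the row could not be matched by position, and its values are not given. ZBTB18, a zinc finger repressor of transcription that acts in neuronal development, went from -1.24 and -1.5 to 2.36 and 2.59, a change of 3.85 or 14.4-fold.

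FOXD3, a forkhead factor of the neural crest, rose by 3.25, and its neighbour FOXD3-AS1 by 3.02. The annotated spans of these genes on chromosome 1 overlap or touch, and whether the authors' counting used the strand is not given in the sources used here. SLC17A7, which loads glutamate into synaptic vesicles, went from 1.79 and 1.82 log2 RPKM to 4.65 and 4.48. CEND1, a neuronal protein linked to cell cycle exit, rose by 2.96, and CALCA, the gene of calcitonin and its related peptide, by 2.45. Of these genes SLC17A7 was the most abundant with shCENPA2.

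NDUFA4L2, a mitochondrial protein induced by hypoxia, went from 1.57 and 1.35 log2 RPKM to 4.39 and 4.04 (change 2.76, adjusted p = 6.3e-06 from limma). LOX, the enzyme that crosslinks collagen, rose by 2.70, RPS6KA2, a ribosomal S6 kinase, by 2.43, and PLEKHH2, a protein of the actin cytoskeleton, by 2.42. The rises above were named only if both shCENPA2 libraries lay above both shNT libraries, so that separation is set by the choice.

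**Figure D2:**
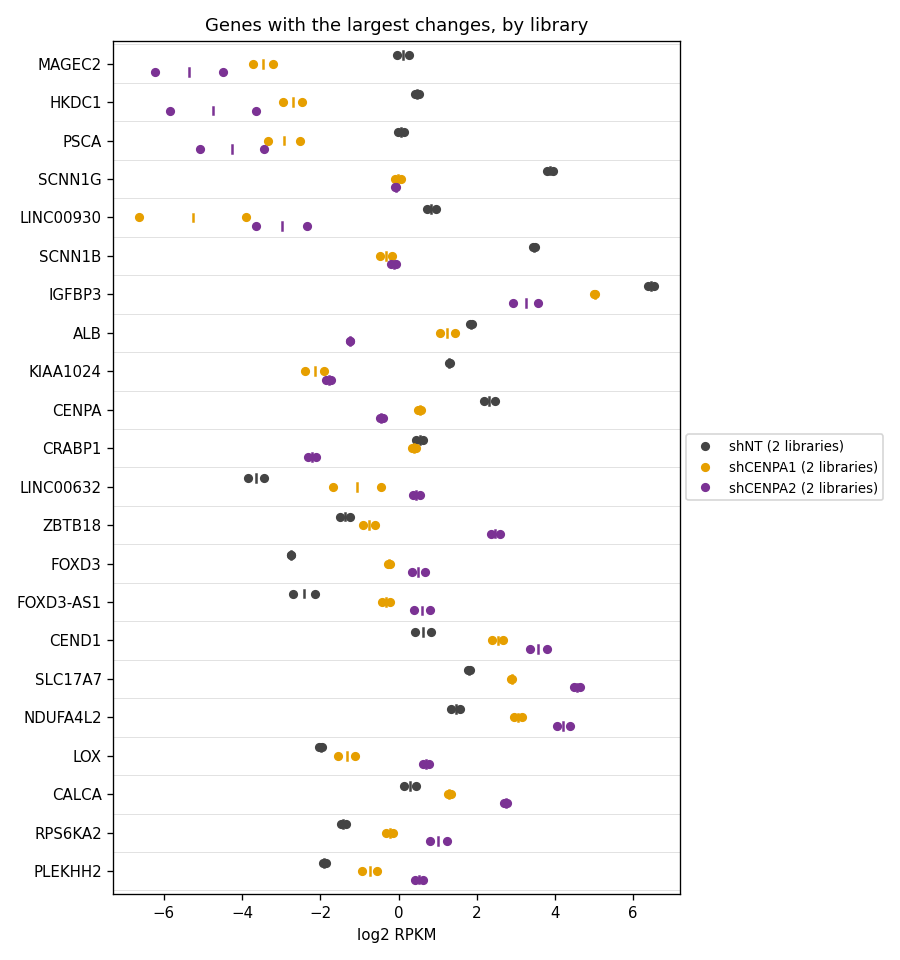
Each row is a gene, and each point is the level in 1 library in log2 RPKM, with a short bar at the mean of the 2 libraries of a hairpin (black shNT, orange shCENPA1, purple shCENPA2). The plot has 11 of the 12 largest falls at the top and 11 of the 12 largest rises at the bottom. Genes were chosen so that black and purple points do not overlap, and the purple points of MAGEC2 and HKDC1 are spread widely.

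Genes of the cell cycle made up a large share of the genes that fell. Of 307 genes tested in 7 lists of mitosis, replication, recombination and cell cycle control 151 were lower (49.2%, against 4.45% of all genes) and 0 were higher by limma and by voom, a limma fit to the whole reads recovered from the table, although 6 had a rise at an unadjusted p under 0.05. The lower ones were 23.2% of all lower genes. In bulk RNA a smaller share of cells in a cell cycle phase and less RNA per cell cannot be told apart.

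In the centromere and kinetochore list 20 of 38 genes were lower, and the median change was -1.06. HJURP, the chaperone that deposits CENPA, went from 3.34 and 3.37 log2 RPKM to 1.71 and 1.59, and OIP5 of the MIS18 complex from 2.99 and 3.05 to 1.52 and 1.5. Both changed by more than the list's median, and of the 6 CENPA deposition genes these 2 were lower. Inner centromere genes had 8 of 17 lower. Among them CENPU changed by -1.81, CENPK by -1.79, CENPW by -1.59 and CENPI by -1.53.

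The other 9 of the 17 inner centromere genes were not called. Of the 17 genes 12 had an adjusted p under 0.05 from limma, and these 12 were all lower. CENPB, which binds the CENP-B box of alpha-satellite DNA, stood at 5.25 and 5.12 log2 RPKM with shNT and 5.26 and 5.09 with shCENPA2. CENPT, which bridges the centromere to the outer kinetochore, changed by -0.13 (adjusted p = 0.632 from limma). The outer kinetochore had 10 of 15 genes lower, with a median of -1.42. The NDC80 complex, which grips the microtubule, was among them: NUF2 fell by 2.07 (adjusted p = 1.08e-05 from limma) and NDC80 by 1.69, and SKA3, of the complex that tracks microtubule ends with it, fell by 1.78.

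Nearly all kinases that drive mitosis fell. Of 18 kinases and partners in the spindle checkpoint and mitotic kinase list 17 were lower, with a median of -1.56. CDK1, the master kinase of mitotic entry, went from 4.79 and 4.88 log2 RPKM to 3.18 and 3.16. AURKB of the chromosomal passenger complex changed by -1.75, PLK1 by -1.41 and MELK by -1.88. AURKA had the smallest called change of these, -1.02, and it was not called without shNT replicate 1 or without shCENPA2 replicate 1, nor with the libraries centred on their median.

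The other roles in that list gave smaller shares. Checkpoint genes had 6 of 12 lower, among them MAD2L1 at -1.77 and the checkpoint kinases BUB1 at -1.60 and TTK at -1.58. Anaphase genes had 7 of 19 lower and a median of only -0.19. Among those that fell, SGO1, the protector of cohesin, changed by -1.83, PTTG1 (securin) by -1.60 and CDC20, the activator of the anaphase-promoting complex, by -1.48. Over the whole list 32 of 52 genes were lower.

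Motors and spindle proteins had the lowest median of the 22 lists, -1.5, with 28 of 37 lower. KIF11, the motor that pushes spindle poles apart, went from 4.44 and 4.46 log2 RPKM to 2.73 and 2.74. KIF20B changed by -1.95, HMMR by -1.80, NUSAP1 by -1.76, KIF18B by -1.75 and KIF20A by -1.63. MKI67, the proliferation marker that coats mitotic chromosomes, went from 4.10 in both shNT libraries to 2.48 and 2.40.

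Among 68 genes of DNA replication 33 were lower, with a median of -0.96. The origin licensing factors ORC1 and CDC6 changed by -1.83 and -1.62, and MCM2 of the replicative helicase by -1.30. CDC45, which activates that helicase, changed by -1.57, CLSPN, which relays replication stress, by -1.93, and TICRR, needed for origin firing, by -1.79. PCNA, the sliding clamp and the most abundant of these, went from 7.27 in both shNT libraries to 5.96 and 6.08 log2 RPKM. POLE2, a subunit of the leading strand polymerase, changed by -1.28. Of the enzymes that supply deoxynucleotides RRM2 changed by -1.71, TYMS by -1.68 and TK1 by -1.48.

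Of 33 genes of homologous recombination and Fanconi repair 17 were lower, with a median of -1.12. EXO1, which resects DNA ends, changed by -2.0, POLQ by -1.94, RAD54L by -1.78, BLM by -1.77 and FANCD2 by -1.34. With 1 added to RPKM the count was 11. Genes of chromosome structure had a smaller share, 11 of 50. TOP2A, which untangles sister chromatids, changed by -1.71, the condensin subunits NCAPG and NCAPH by -1.73 and -1.57, the histone chaperone ASF1B by -1.63 and the lamin LMNB1 by -1.48. HMGB2 changed by -0.97, short of the size for a call, and DAXX, a chaperone that can place CENPA outside centromeres, by -0.07 (adjusted p = 0.771 from limma). Of the 26 histone genes measured 0 were called by limma or voom (6 at an unadjusted p under 0.05), and their changes lay between -0.67 and 0.57. Over all genes 4.45% were lower and 1.68% higher, so with so few genes a count of 0 is near those shares. The libraries were made from polyadenylated RNA, which most replication-dependent histone transcripts are not.

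Of the 29 cell cycle regulators and G1 cyclins 10 were lower and 0 higher. MYBL2, which encodes B-MYB, went from 3.99 and 4.02 log2 RPKM to 2.60 and 1.86, and FOXM1 from 4.65 and 4.58 to 3.28 and 2.93. E2F1 changed by -1.41, E2F2 by -1.73, the repressive family member E2F8 by -1.88, CCNE2 by -1.38 and CKS2, a partner of cyclin-dependent kinases, by -1.75. CCND1, a cyclin of early G1, stood at 9.09 and 9.0 with shNT and 8.38 and 8.37 with shCENPA2, a change of -0.67 (adjusted p = 0.00375 from limma) that did not reach the size for a call.

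Few inhibitors of the cycle were called. In the list of CDK inhibitors and p53 targets 0 of 35 genes were lower by limma or voom (8 at an unadjusted p under 0.05). In the same list 1 gene was higher (2.86%), and the median was -0.01. Over all genes 4.45% were lower and 1.68% higher, so with so few genes these counts are near those shares. CDKN1A (p21) stood at 6.35 and 6.21 log2 RPKM with shNT and 6.19 and 5.91 with shCENPA2. CDKN1B (p27) changed by -0.11, CDKN2B (p15) by 0.44 (adjusted p = 0.053 from limma) and MDM2, a p53 target, by -0.20. Of the 7 inhibitors 2 had an adjusted p under 0.05 from limma without the size for a call. These were CDKN1C (p57), just short of it at -1.0, and CDKN2C (p18) at -0.56. The gene that rose was GDF15, a stress-induced hormone of the TGF-beta family, from 4.24 and 4.03 to 6.04 and 5.82. The count of lower members was 1 without shNT replicate 2, without shCENPA2 replicate 1 or without shCENPA2 replicate 2.

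**Figure D3:**
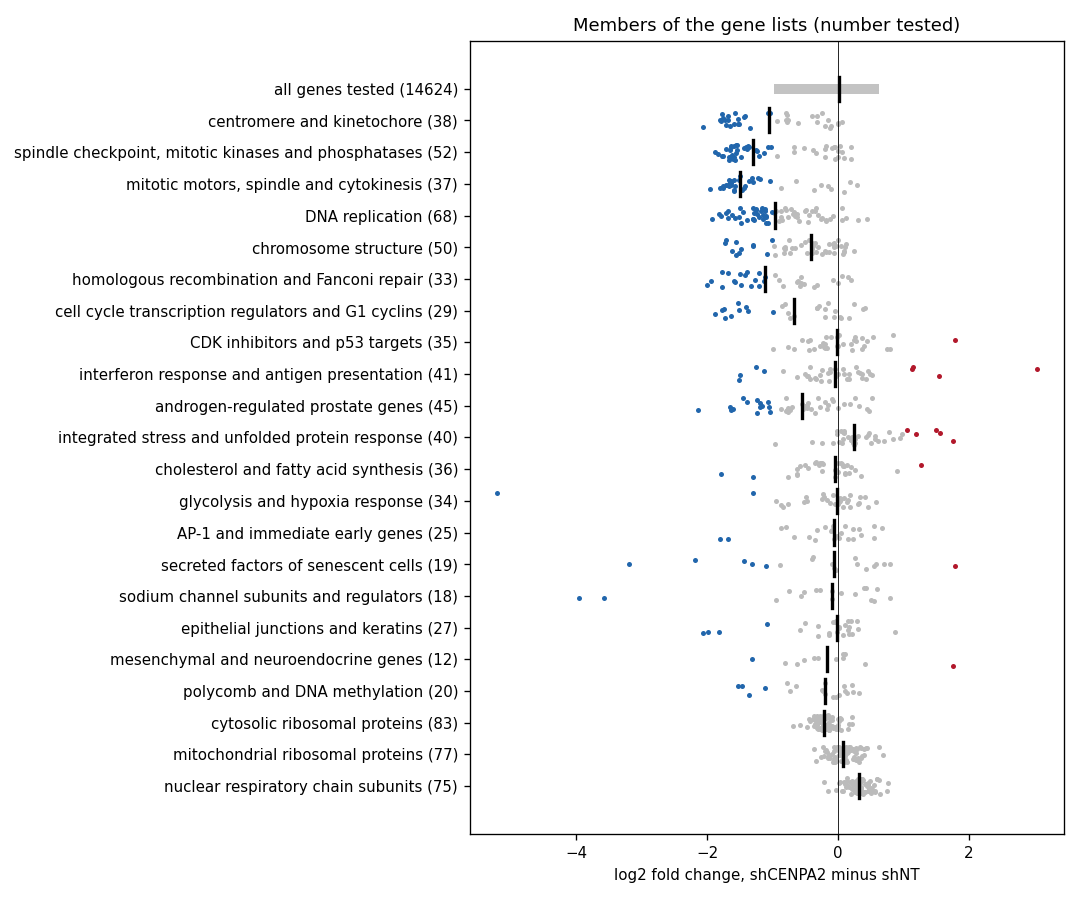
Each point is a gene's log2 fold change (shCENPA2 minus shNT) in 1 of 22 gene lists, with the number of members tested in parentheses, blue for genes called lower, red for genes called higher and grey for the rest, and a black bar at the list's median. The grey band at the top spans the 5th to 95th percentile of all genes. The first 7 lists, those of the cell cycle, hold 151 of the blue points and no red one.

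The promoters of these genes were compared with those of all genes tested, using RefSeq sequence of GRCh38.p14 from 250 bases before to 50 bases after the first start listed for each gene, which was found for 10655 of the genes tested. The CHR element was searched as TTTGAA and the E2F site as TTTCCCGC, TTTGGCGC, TTTCGCGC or TTTGCCGC, each on both strands. CHR letters stood in 22.1% of the 462 promoters of lower genes, in 11.7% of the 180 promoters of higher genes and in 9.36% of all promoters of genes tested (15.4% of the 27305 promoters in the table). E2F letters stood in 11.5% of lower, 1.67% of higher and 5.3% of all tested (3.33% of the table). The share with CHR letters was 26.6% among genes that changed by less than -1.5, 18.1% between -1.5 and -1, 12.9% between -1 and -0.5 and 8.49% between -0.5 and 0.5. The CCAAT box, searched as CCAAT on both strands, stood in 47.0% of lower and 36.9% of all promoters of genes tested. The TATA box, searched as TATAAA on both strands, stood in 7.58% of lower, 10.6% of higher and 5.34% of all tested (12% of the table), and the GC box (GGGCGG on both strands) in 67.1%, 63.9% and 70.6% (44.6% of the table, which holds 35.7% with CCAAT). Such matches are a description of the letters and not of binding.

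**Figure D4:**
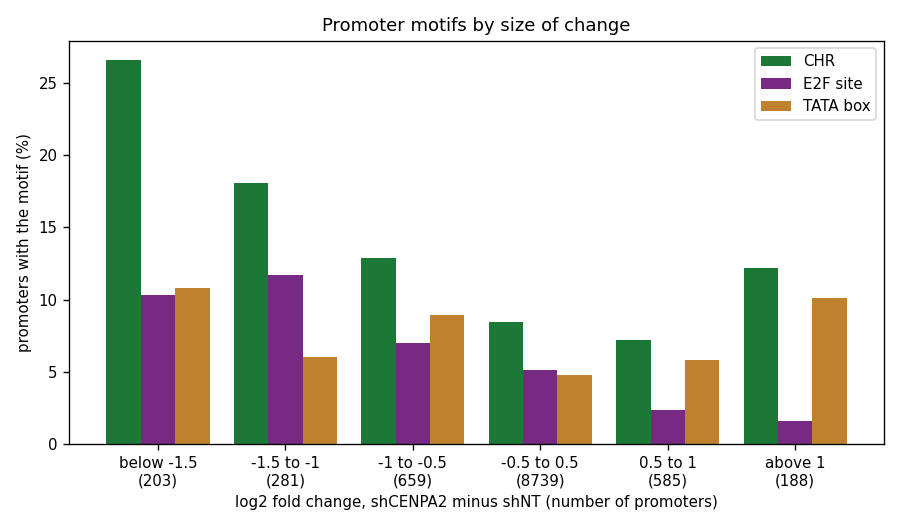
Bars give the percent of promoters that hold the CHR, E2F or TATA letters, by the log2 fold change of the gene (shCENPA2 minus shNT), with the number of promoters in each class in parentheses. The CHR bar falls from 26.6% to 8.49% between the most lowered genes and those that changed by less than 0.5 either way, and the E2F bar is at 1.6% for genes with a change above 1.

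The last 100 bases before the start are shown for CENPA and the lowered genes discussed above with 1 listed start and CHR letters there. This choice limits how far from the start a match can lie, so the distances do not show where the element sits in other genes. Capitals mark the CHR letters on either strand. In the 7 genes chosen in this way the last match begins 18 to 65 bases before the start, and MKI67 has 2 copies.
CENPA, chr2:26785956-26786055, plus strand: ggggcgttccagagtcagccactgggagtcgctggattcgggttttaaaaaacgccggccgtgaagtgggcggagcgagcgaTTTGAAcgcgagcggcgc
PLK1, chr16:23678789-23678888, plus strand: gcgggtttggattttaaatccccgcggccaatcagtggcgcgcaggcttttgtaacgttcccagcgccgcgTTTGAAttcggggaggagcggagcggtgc
CDC20, chr1:43358881-43358980, plus strand: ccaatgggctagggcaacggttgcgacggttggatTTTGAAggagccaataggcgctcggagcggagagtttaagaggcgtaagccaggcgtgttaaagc
KIF11, chr10:92593030-92593129, plus strand: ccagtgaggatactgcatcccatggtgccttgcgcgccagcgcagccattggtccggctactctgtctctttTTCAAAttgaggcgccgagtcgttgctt
MKI67, chr10:128126424-128126523, minus strand: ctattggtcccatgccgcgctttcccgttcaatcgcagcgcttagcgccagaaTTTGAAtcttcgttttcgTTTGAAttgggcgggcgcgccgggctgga
NCAPG, chr4:17810879-17810978, plus strand: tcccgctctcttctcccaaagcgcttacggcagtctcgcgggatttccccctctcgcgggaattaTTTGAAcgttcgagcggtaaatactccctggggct
ASF1B, chr19:14136590-14136689, minus strand: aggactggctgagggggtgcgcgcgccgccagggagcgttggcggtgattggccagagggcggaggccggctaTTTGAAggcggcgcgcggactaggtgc

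Chosen in the same way, TYMS and E2F1 held E2F letters in the same window, marked here in capitals on either strand.
TYMS, chr18:657553-657652, plus strand: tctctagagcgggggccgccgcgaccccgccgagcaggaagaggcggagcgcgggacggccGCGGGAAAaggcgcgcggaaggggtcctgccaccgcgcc
E2F1, chr20:33686386-33686485, minus strand: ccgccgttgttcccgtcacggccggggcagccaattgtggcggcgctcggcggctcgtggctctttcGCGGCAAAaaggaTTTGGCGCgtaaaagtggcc

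Beyond the cell cycle, androgen-regulated genes gave the next largest share of falls. Of 45 tested in a list of androgen-regulated prostate genes 14 were lower (31.1%, against 4.45% of all genes), with a median of -0.55. By limma or voom 0 were higher (4 at an unadjusted p under 0.05), against 1.68% of all genes by limma. KLK3, which encodes prostate-specific antigen and is low in these cells, went from -0.48 in both shNT libraries to -2.17 and -2.07 log2 RPKM. FKBP5, a chaperone that the androgen receptor induces directly, went from 3.93 and 3.95 to 2.84 and 2.90. GNMT, a methyltransferase of glycine, changed by -2.14, HPGD, which degrades prostaglandins, by -1.66, and the amino acid carrier SLC38A4 by -1.61, a call that was lost without shNT replicate 1.

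The 4 factors that open chromatin for the receptor changed by -0.55 to 0.47 on the log2 scale, and none was called. All 4 had an adjusted p under 0.05 from limma, 3 of them lower and 1 higher, against 18.5% of all genes. FOXA1 changed by -0.31 and HOXB13 by 0.47 (adjusted p = 0.0448 and 0.0164 from limma). TMPRSS2, a surface protease, changed by -0.79, with an adjusted p under 0.05 from limma but short of the size for a call. With 1 added to RPKM, which shrinks the change of weakly expressed genes, 6 members of the list were lower.

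Genes of the integrated stress response rose in part. Of 40 genes in the stress and unfolded protein list 5 were higher (12.5%, against 1.68% of all genes), with a median of 0.25. By limma or voom 0 were lower (2 at an unadjusted p under 0.05), against 4.45% of all genes by limma. The 5 higher genes all belong to the ATF4 branch, in which 5 of 23 genes were called. CHAC1, which degrades glutathione, went from 2.57 and 2.51 log2 RPKM to 4.44 and 4.17. STC2 rose by 1.56, DDIT4, an inhibitor of mTORC1, by 1.5, and PCK2, a mitochondrial enzyme of gluconeogenesis, by 1.19. DDIT3 (CHOP) and ASNS, asparagine synthetase, changed by 0.71 and 0.94 with adjusted p = 0.00247 and 0.000169 from limma, short of the size for a call. The chaperone branch had 0 of 17 called by limma or voom, with HSPA5 (BiP) at 0.25, although 1 of the 17 had an adjusted p and 5 an unadjusted p under 0.05. Under quantile normalization, without shNT replicate 2 or without shCENPA2 replicate 1, 1 member of the list was called lower.

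Interferon genes were called both ways. Of 41 tested 4 were lower and 4 higher (9.76% each, against 4.45% and 1.68% of all genes). IFI44 rose from -2.87 and -3.72 log2 RPKM to -0.60 and 0.09, while OAS3, a sensor of double-stranded RNA, went from 1.94 and 2.04 to 0.60 and 0.35 and IFITM2, which blocks virus entry, changed by -1.49. The other lower members were RSAD2 (-1.25) and BST2 (-1.13), both antiviral proteins. ISG15, which rises broadly in an interferon response, changed by -0.15, which did not pass the test. Of 9 antigen presentation genes 2 were higher: HLA-B and HLA-C, class I heavy chains whose close sequence leaves the split of reads between them uncertain, changed by 1.14 and 1.13. B2M, their light chain, changed by 0.31 (adjusted p = 0.0705 from limma).

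Lipid, sugar and early response genes gave isolated calls. SCD, the desaturase that makes oleate, went from 7.47 and 7.46 log2 RPKM to 5.71 and 5.65, while FASN changed by -0.45 and HMGCS1 by 0.09, neither of them called. ME1, which makes NADPH for fatty acid synthesis, rose by 1.27. Of 34 glycolysis and hypoxia genes HKDC1 and the carbonic anhydrase CA12 (-1.31) were lower. That is 5.88%, near the 4.45% of all genes. GAPDH stood at 10.01 and 9.93 with shNT and 10.18 and 9.93 with shCENPA2. Of 25 AP-1 and immediate early genes DUSP2 (-1.81) and CTGF (-1.68) were lower (8.0%, against 4.45% of all genes). FOS, JUN and EGR1 changed by -0.36, 0.11 and -0.12.

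Secreted factors often found in senescent cells were mostly unmeasured, with 19 of 44 tested. Of these 5 were lower (26.3%, against 4.45% of all genes) and 1, GDF15, higher (5.26%, against 1.68% of all genes). IGFBP3 and IGFBP5 (-2.19) led the falls, and CSF1 (-1.44) was not called without shNT replicate 2, when 3 members of the list were lower. Of 27 epithelial junction and keratin genes 4 were lower (14.8%). They were KRT7 at -2.07, KRT19 at -2.0, the desmosome protein PKP1 at -1.82 and CLDN1 at -1.08. The CLDN1 call was lost without shNT replicate 2 and without shCENPA2 replicate 2. CDH1 (E-cadherin) and the luminal keratin KRT8 changed by 0.22 and -0.08. Of 12 mesenchymal and neuroendocrine genes FN1 was lower (-1.31) and CHGA higher (1.76), or 8.33% each. The FN1 call was lost without either shNT library, either shCENPA1 library or shCENPA2 replicate 1. It was also lost with 0.1 or 1 added to RPKM and with quantile normalization. With only the groups compared in the fit and with a replicate block it was lost as well. VIM changed by -0.81 and ENO2 by -0.52.

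Of 20 polycomb and DNA methylation genes 4 were lower. They were PHF19, a polycomb subunit that reads methylated histone H3, at -1.53, the remodeller HELLS at -1.48, its partner in maintaining DNA methylation UHRF1 at -1.36, and TET1 at -1.12. The TET1 call was lost under 10 of the 17 alternatives, among them those without either shNT library, either shCENPA1 library or shCENPA2 replicate 2. EZH2 and DNMT1 changed by -0.73 and -0.65, with an adjusted p under 0.05 from limma but not called.

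No gene of 3 large families was called by limma. Over all genes 4.45% were called lower and 1.68% higher, 18.5% had an adjusted p under 0.05 from limma, and the median change was 0.01. For 75 nuclear genes of the respiratory chain the median was 0.33, with 3 below 0, and 25 (33.3%) had an adjusted p under 0.05 from limma. For 83 cytosolic ribosomal protein genes, which include near-identical copies, the median was -0.21, with 73 below 0 and 4 (4.82%) with an adjusted p under 0.05, a smaller share than over all genes. For 77 mitochondrial ribosomal protein genes the median was 0.08, with 26 below 0 and 9 (11.7%) with an adjusted p under 0.05, again a smaller share. Other scalings of the libraries kept the sign of these 3 medians. By voom 0 genes of these families were called as well.

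Called genes were sometimes neighbours. Of 10203 pairs of next genes tested that lie within 100 kb of each other, 37 (0.363%) were both lower, 9 (0.0882%) were both higher and 11 were called in opposite directions. Whether neighbours were called together more often than other genes was not tested. On chromosome 19 the genes PTH2, GFY and SLC17A7 follow each other with gaps of 306 and 414 bases, and they rose by 2.35, 2.40 and 2.76. On chromosome 19 KLK3, KLK2, KLKP1 and KLK4 were lower by 1.64, 1.05, 1.07 and 1.45 on the log2 scale. On chromosome 15 OIP5 and NUSAP1 lie 290 bases apart. These pairs were picked after their values were seen.

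The direct contrast with shCENPA1 shows where the stronger hairpin differed. With shCENPA2 81 genes were lower (0.554%) and 26 were higher (0.178%) than with shCENPA1, far fewer than against shNT. The counts rested heavily on single libraries: lower genes numbered 22 without shCENPA1 replicate 1, 17 without shCENPA1 replicate 2 and 183 without shCENPA2 replicate 1, and higher genes 5 without shCENPA1 replicate 2, 41 without shCENPA2 replicate 1 and 17 without shCENPA2 replicate 2. Against shNT, shCENPA1 itself had 268 lower (1.83%) and 120 higher (0.821%) genes. The contrasts against shNT share its libraries, so their values are given side by side only. Genes lower with shCENPA2 had a median change of -1.43 with shCENPA2 and -0.92 with shCENPA1, and genes higher with shCENPA2 had 1.32 and 0.93.

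The 7 cell cycle lists held 0 genes called between the hairpins by limma or voom. Over all genes 0.554% were called lower and 0.178% higher by limma, so 0 of 307 is near those shares. An unadjusted p under 0.05 was reached by 112 of the 307, and by 1943 of all 14624 genes, a smaller share. The medians of these lists against shNT were lower with shCENPA2 than with shCENPA1. For example, they were -1.5 and -1.15 for motors and spindle and -1.31 and -1.01 for the checkpoint and mitotic kinases. For recombination they were -1.12 and -0.73. NUF2 differed by -0.69 (adjusted p = 0.0274 from limma), CENPW by -0.66 (adjusted p = 0.0131 from limma) and CDK1 by -0.50 (adjusted p = 0.0364 from limma), none of a size for a call. MKI67 differed by -0.27 and HJURP by -0.33, with adjusted p = 0.426 and 0.289 from limma.

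The largest called differences between the hairpins were of genes outside these lists. PKP1, a plakophilin of desmosomes, stood at -2.62 and -2.67 log2 RPKM with shCENPA2, at 0.33 and 0.26 with shCENPA1 and at -0.59 and -1.07 with shNT. It was thus below the control with one hairpin and above it with the other, and the hairpins differed by -2.95 (adjusted p = 0.000819 from limma). ALDH1A1, an enzyme of retinoic acid synthesis, stood at 0.36 and 0.68 with shCENPA2, at 2.98 and 3.09 with shCENPA1 and at 2.89 and 2.93 with shNT. For CRABP1 and ALB the hairpins differed by -2.61 and -2.50, and shCENPA1 was within 0.61 of shNT on the log2 scale, below it for both. OASL, an antiviral protein, was called higher than shNT with both hairpins and was lower with shCENPA2, at -1.82 and -2.63 against 0.21 in both shCENPA1 libraries, and this difference was not called without either shCENPA1 library. Its call against shNT (1.54) was lost with 0.1 added to RPKM (0.87), with 1 added (0.19) and with only the groups compared in the fit.

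Of the genes higher with shCENPA2 than with shCENPA1, ZBTB18 had the largest difference, 3.22 (adjusted p = 0.000132 from limma), with shCENPA1 at -0.60 and -0.90 log2 RPKM. BMX, a kinase of the TEC family, stood at 0.38 and 0.02 with shCENPA2, at -2.37 and -2.86 with shCENPA1 and at -1.69 and -1.91 with shNT. LOX differed by 2.03, SLFN5, of the Schlafen family, by 1.82, and NDST4, an enzyme of heparan sulfate, by 1.68. Without shCENPA1 replicate 2 BMX, LOX, SLFN5 and NDST4 were not called in this contrast, and NDST4 was also lost without shCENPA1 replicate 1 and without shCENPA2 replicate 2.

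**Figure D5:**
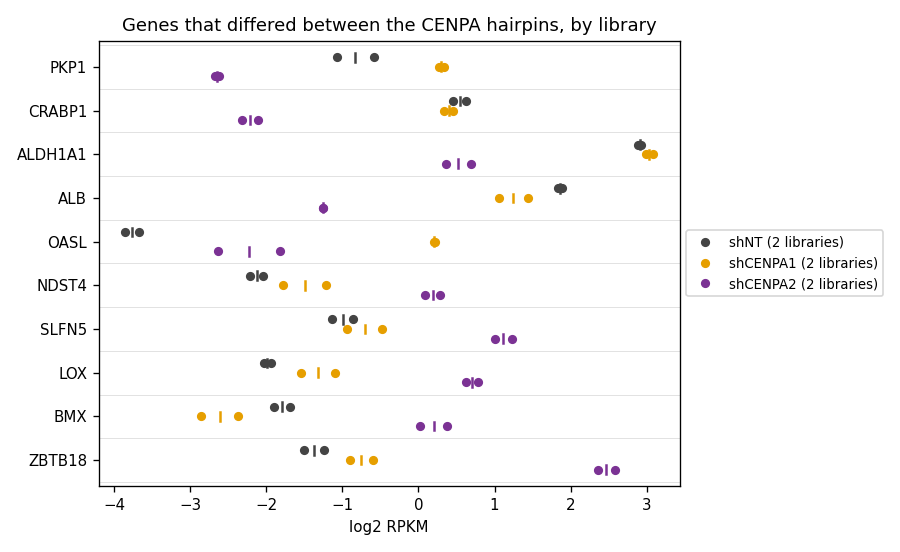
Each row is 1 of the 10 genes with the largest called differences between the hairpins among genes that were also called against shNT and reached 0 log2 RPKM with either hairpin, and each point is the log2 RPKM of 1 library, with a bar at the mean of 2 libraries. Purple points (shCENPA2) stand apart from orange ones (shCENPA1) in every row, while orange and black (shNT) lie close together for CRABP1, ALDH1A1 and SLFN5.

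Genes whose change was alike with both hairpins included some of the largest. SCNN1G stood at 0.07 and -0.08 log2 RPKM with shCENPA1, and the hairpins differed by -0.07 (adjusted p = 0.88 from limma). SCNN1B differed by 0.20 and KIAA1024 by 0.36, while their changes against shNT were -3.58 and -3.09 with shCENPA2 and -3.78 and -3.45 with shCENPA1. SCD was lower with shCENPA1 than with shCENPA2, at 5.08 and 4.94, although CENPA itself was higher there, and the hairpins differed by 0.67 (adjusted p = 0.00809 from limma), short of the size for a call. A p that misses the threshold does not show that the hairpins act alike.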

How the data were processed

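The authors sequenced stranded, polyadenylated mRNA libraries. The authors trimmed with Trim Galore, mapped to hg38 by STAR, took counts from HTSeq and called genes in edgeR. Versions are not given in the sources used here. The deposited table holds log2 RPKM of 14828 genes for each run. Whole reads recovered from the steps between low values gave the depth and showed library sizes scaled by TMM factors (0.9736 to 1.0167). A prior of 0.25 reads is part of each value, which shrinks the changes of genes with few reads.

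Lanes were averaged per library. The test was limma 3.58.1 under R 4.3.3, with a variance trend, on the 14624 genes that averaged -3 log2 RPKM or more, as 1 fit of 6 libraries without covariates. The fit was tested on simulated data. Named genes are CENPA and the 12 largest called changes each way at 0 log2 RPKM or more. For these 12 both shCENPA2 libraries had to lie on 1 side of both shNT libraries. Up to 4 called and all preset key genes of each of 22 lists were also named. At the same level limit, the 5 largest called differences between hairpins each way were added, among genes called against shNT. Some genes that met this rule are not reported here. Members and lists were chosen with earlier results of these data known. RefSeq symbols (GRCh38.p14) matched 13435 genes (91.9%). Alternatives were other filters, constants, scalings, replicate definitions and fits, and each library left out.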

Additional observations from a re-analysis of the deposited data

Results flagged for a closer look

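The direct test between the hairpins marked 81 genes as lower and 26 as higher with shCENPA2 than with shCENPA1, so the effects of the CENPA hairpins differed for these genes by limma. The largest differences among genes that were also called against shNT and reached 0 log2 RPKM with either hairpin were -2.95 for PKP1, -2.61 for CRABP1, -2.52 for ALDH1A1, -2.50 for ALB and -2.44 for OASL on the log2 scale. In the other direction they were 3.22 for ZBTB18, 2.81 for BMX, 2.03 for LOX, 1.82 for SLFN5 and 1.68 for NDST4. Each hairpin has its own sequence, its own cell line and its own depth of knockdown, and these cannot be told apart with 1 line per hairpin. Groups of 2 libraries are too small to test for a single outlying library.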

How the results depend on the processing

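Against shNT the counts of 651 lower and 246 higher genes stayed within 1.5 times under all alternatives run except a minimum mean of 0 log2 RPKM (412 and 117) and 1 added to RPKM (254 and 63). Leaving out 1 library at a time gave 559 to 819 lower and 216 to 269 higher genes. Against shCENPA1 the counts of 81 lower and 26 higher genes moved with lanes taken as 4 replicates (160 and 70), a minimum mean of 0 (41 and 12) and 1 added to RPKM (10 and 7), and leaving out 1 library gave 17 to 183 lower and 5 to 41 higher genes. Fewer genes are tested under the minimum of 0, and a constant of 1 shrinks the change of weakly expressed genes. For the other moves the cause was not tested. The CENPA change lay between -1.79 and -2.90 and was called under all 17 alternatives.

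Same-numbered libraries did not deviate together (correlations of -0.064, -0.095 and -0.145). With groups of 2 libraries these values cannot show whether same-numbered libraries were grown or prepared together. With a replicate block 645 genes were lower and 246 higher against shNT, and 69 and 26 against shCENPA1. The block ended the call of FN1 and of no other named gene. Voom on the recovered reads called 683 lower and 256 higher genes. Of 127 called genes that the naming rule or a later choice picked besides CENPA 89 were called under every alternative that tested them. Groups of 2 libraries limit the precision, and 36 called genes had under 50 reads in every library of a group, where depth limits it too.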

Other observations

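Genes typical of liver and gut epithelium were looked at after their values were seen, so their counts carry no test. HNF4G, a nuclear receptor of these tissues, changed by -0.83 and was not called. SPINK1, a trypsin inhibitor found in some prostate tumours, went from 3.71 and 3.74 log2 RPKM with shNT to 1.57 and 1.69 with shCENPA2, while shCENPA1 stood at 3.61 and 3.87. VIL1, the villin of microvilli, changed by -1.16 against shNT, and by -0.08 with shCENPA1. REG4 changed by -3.28, ABCC2, an exporter of conjugates, by -2.67, and AMBP by -1.53. The AMBP call was lost without shNT replicate 1, without either shCENPA1 library and without shCENPA2 replicate 1. F5, a clotting factor made in liver, went the other way and rose by 1.31, a call that was lost without shNT replicate 1.

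Another 4 genes, also picked after their values were seen, encode enzymes that convert or conjugate steroids, and each was called lower. AKR1C3 went from 1.95 and 1.89 log2 RPKM with shNT to -0.26 and -0.36 with shCENPA2, and its neighbour AKR1C2 changed by -3.77. UGT2B15 and UGT2B17 changed by -2.12 and -1.61. With 1 added to RPKM the calls of AKR1C2, UGT2B15 and UGT2B17 were lost, while that of AKR1C3 was kept. With shCENPA2 AKR1C2 rests on 44 and 23 reads, UGT2B15 on 16 and 57 and UGT2B17 on 27 and 47. The members of each pair are close copies, so the split of reads between its members is uncertain.

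Genes used by neurons did not move as 1 set. SLC17A7, CEND1 and CALCA rose, and SYT3 rose by 1.49, a call that was lost without shNT replicate 1. SYP, SNAP25 and SYN1 changed by -0.03, -0.02 and -0.05, and STX1A by 0.18. REST, the repressor of neuronal genes, changed by -0.03, and SRRM4, a splicing factor of neuroendocrine prostate tumours, by -0.87 (adjusted p = 0.000679 from limma), short of the size for a call.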
